A study of Mus musculus with 2 samples.

Results

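The MYC and MYB family genes described here are 10 mouse genes, taken by their symbols from the GENCODE M21 annotation of 21938 protein-coding genes: Myc, Mycn, Mycl, Max, Mxi1, Mga, Mxd4, Myb, Mybl1 and Mybl2. They were examined in 1 ChIP-seq experiment that mapped H3K4me3, the trimethylated form of lysine 4 on histone H3, which marks promoters that are active or ready to be used. The cells were MEL, an immortalized mouse erythroleukaemia line that resembles red cell precursors held before terminal differentiation. There was 1 group, with no treatment, genotype or second condition named, and 2 replicates that the labels call biological but trace to the same cell sample. Whether their spread is biological or technical is therefore not known. The erythroid markers fitted the label, with a peak at the start of 10 of 10, against 0 of 5 lymphoid and 0 of 5 myeloid markers. Of fibroblast markers 3 of 5 had one, and of endothelial markers 1 of 4, so not every marker set fitted. Among all protein-coding genes the share was 50.3% in the list of replicated peaks.

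MYC proteins bind DNA at E-boxes as dimers with MAX and raise the transcription of genes for growth and ribosome production. MXI1 and MXD4 compete for MAX and bring SIN3 repressor complexes, and MGA is a further MAX partner found in a Polycomb complex. MYB is a transcription factor of blood progenitors, MYBL1 acts in male germ cells, and MYBL2 works with the MuvB complex on genes of late cell cycle. In MEL cells, induced differentiation is known to be accompanied by a fall of Myc and Myb, and forced expression of either blocks it.

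H3K4me3 lay at the starts of all 3 MYB genes and of 5 of the 7 genes of the MYC and MAX network. Of the 10 members, 8 had a peak within 1000 bp of an annotated transcript start, called a start peak here. These were Myc, Max, Mxi1, Mga, Mxd4, Myb, Mybl1 and Mybl2. Mycn, which serves mainly in embryonic and neural progenitors, and Mycl, best known from lung and dendritic cells, had none. Those calls came from the replicated list, which the authors made from both replicates by a rule that is not stated, and in which 50.3% of all protein-coding genes had a start peak. They were the same in the replicate 1 list (50.4% of genes), the replicate 2 list (50.9%) and the list from pooled replicates (50.6%). All 10 members have high-CpG promoters, and among high-CpG genes 79.8% had a start peak, so 8 of 10 is close to the background of that class. Repeated sequence covered little of any member promoter. The share of 32-base words found more than once in the genome was highest for Mycn, at 1.13%.

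Shown are the promoters of 4 of the members that carry sequence words discussed next. Mxd4 and the last Mxi1 promoter also carry such words and are not shown. Each promoter runs from 250 bases before to 50 after a RefSeq gene start on GRCm38.p6. RefSeq promoters were matched for 8 of the 10 members. Myc and Mybl1 had no match, so the words were not searched at their promoters. Capitals mark CACGTG (the E-box of MYC and MAX), TAACNG (the MYB word), TTTCCCGC or TTTGGCGC or TTTCGCGC (E2F words), TTTGAA or TTCGAA (CHR words, found in late cell cycle genes) and TTGGCGGG, on either strand.
Myb promoter, chr10:21160935-21161234, minus strand: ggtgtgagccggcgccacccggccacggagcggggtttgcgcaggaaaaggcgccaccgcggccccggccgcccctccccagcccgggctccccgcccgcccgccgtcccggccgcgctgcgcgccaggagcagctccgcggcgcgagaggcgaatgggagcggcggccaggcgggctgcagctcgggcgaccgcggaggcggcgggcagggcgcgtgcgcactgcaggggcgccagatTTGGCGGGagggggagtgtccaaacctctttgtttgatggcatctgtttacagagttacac
Mybl2 promoter, chr2:163054385-163054684, plus strand: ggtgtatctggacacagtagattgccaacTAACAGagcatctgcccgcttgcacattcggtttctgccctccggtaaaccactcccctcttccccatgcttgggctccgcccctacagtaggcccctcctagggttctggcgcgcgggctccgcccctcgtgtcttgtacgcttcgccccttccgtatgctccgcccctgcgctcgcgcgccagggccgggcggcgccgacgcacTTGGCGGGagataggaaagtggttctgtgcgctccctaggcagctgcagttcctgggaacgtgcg
Max promoter, chr12:76962199-76962498, minus strand: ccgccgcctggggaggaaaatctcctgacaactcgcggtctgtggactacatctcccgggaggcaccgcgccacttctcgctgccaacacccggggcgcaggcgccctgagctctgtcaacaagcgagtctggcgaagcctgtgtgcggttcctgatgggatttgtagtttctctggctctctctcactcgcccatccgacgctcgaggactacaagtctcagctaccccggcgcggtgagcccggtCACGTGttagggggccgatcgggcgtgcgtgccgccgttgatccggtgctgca
Mycn promoter, chr12:12941787-12942086, minus strand: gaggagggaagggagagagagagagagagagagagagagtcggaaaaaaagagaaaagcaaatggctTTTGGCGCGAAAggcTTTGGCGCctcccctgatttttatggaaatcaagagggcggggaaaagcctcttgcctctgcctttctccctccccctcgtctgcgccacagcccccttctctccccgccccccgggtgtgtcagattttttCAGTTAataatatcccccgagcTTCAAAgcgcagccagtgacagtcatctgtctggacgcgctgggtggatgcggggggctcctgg

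Among 32851 RefSeq promoters of the same length, CACGTG was present in 7.15%. Of the 8 members searched it was present in Max and Mxd4, once each. The MYB word TAACNG, present in 23.3% of promoters, was found once in Mycn, once in Mybl2 and once in the last of the 3 RefSeq promoters of Mxi1. Mycn held 3 E2F words, against a share of 1.84% of promoters with any, and 1 CHR word, present in 19.2%. The first pair of the Mycn E2F words overlap each other on opposite strands. TTGGCGGG, an E2F-like word that was searched only after these promoters had been read, lay in Myb and Mybl2 and in 0.974% of all promoters. Mga, Mycl and the first 2 Mxi1 promoters held none of these words. A match is a description of letters and no evidence of binding.

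**Figure D1:**
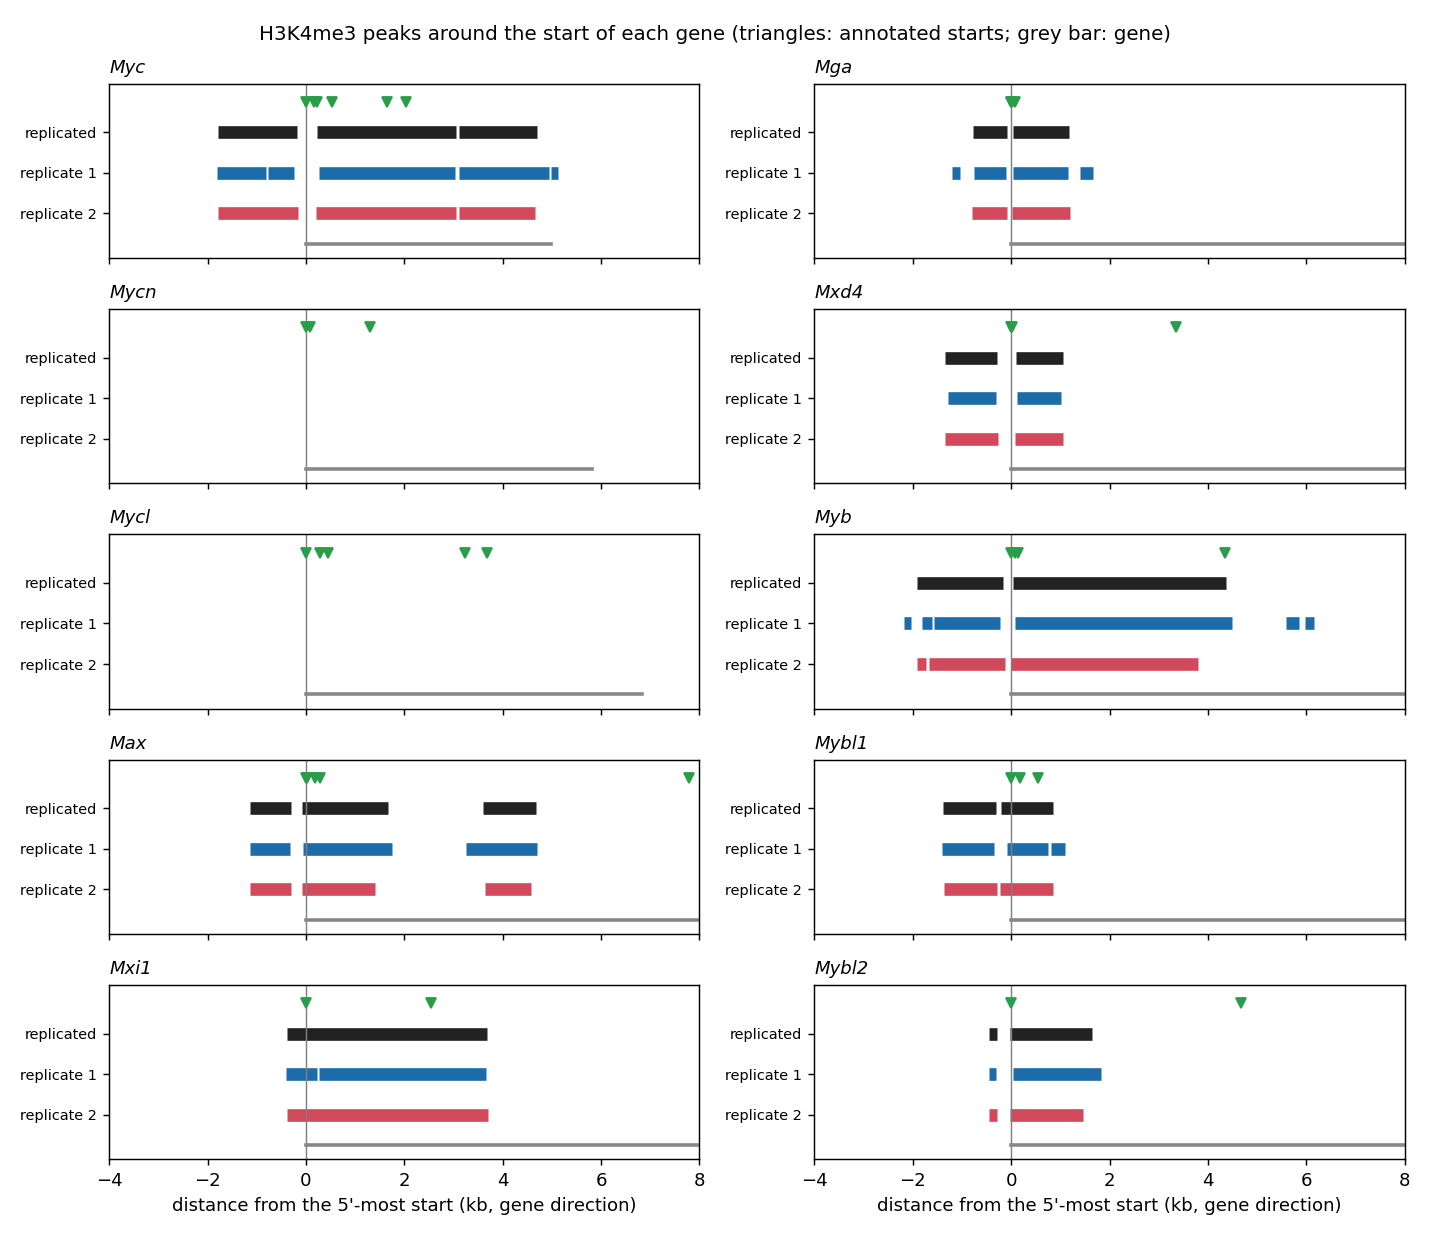
H3K4me3 peaks around the 5'-most start of each of the 10 genes, by list: replicated (black), replicate 1 (blue) and replicate 2 (red). The horizontal axis is distance from that start in kb in the direction of transcription, triangles are annotated starts and the grey bar is the gene. Mycn and Mycl are empty in all 3 lists, and the peaks of Myc and Myb run far into the gene.

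Myc and Myb had the widest start domains. A domain here is a run of peaks merged over gaps of up to 1000 bp. At Myc the domain was 6937 bp wide in replicate 1, 6439 bp in replicate 2 and 6490 bp in the replicated list, with a replicate mean of 6688 ± 352 bp (SD, n = 2). At Myb it was 6682 bp in replicate 1, 5725 bp in replicate 2 and 6291 bp in the replicated list, with a mean of 6203.5 ± 677 bp (SD, n = 2). The replicate ranges of these genes overlap, so their order is not settled. Both exceeded the 95th percentile of marked protein-coding genes in each list, which was 4864 bp in the replicated list, 5450 bp in replicate 1 and 4741.5 bp in replicate 2. Of 11037 marked genes 5.01% were at or above that limit, and of the 8 marked members Myc and Myb were. Myc ranked 153 and Myb 175 by width.

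The place of Myc and Myb in the widest 5% depended on how peaks were joined. With no merging, Myb and Mxi1 were above the limit of 3115 bp for single peaks, and Myc was not. With gaps of up to 3000 bp, the limit rose to 6878 bp and Mxi1 was the single member above it. That Mxi1 domain, of 7032 bp, joined peaks around its downstream starts with peaks on either side of them. These included the peak at the start of AC133451.2, a gene annotated inside Mxi1. The domain did not include the peak at the 5'-most start, which was the wide Mxi1 peak with no merging.

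Mxi1, whose product competes with MYC for MAX, came next at 4059 bp in replicate 1 and 4087 bp in replicate 2 (mean 4073 ± 19.8 bp, SD, n = 2). Its replicate range lay below that of Myb and above that of Max, which had 2892 bp and 2530 bp (mean 2711 ± 256 bp, SD, n = 2). Mga had 2860 bp and 2008 bp (mean 2434 ± 602 bp, SD, n = 2), so that replicate 1 put it above the median gene and replicate 2 below. Mybl1 had 2499 bp and 2219 bp (mean 2359 ± 198 bp, SD, n = 2). Mxd4 had 2298 bp and 2405 bp (mean 2351.5 ± 75.7 bp, SD, n = 2), and Mybl2 2282 bp and 1913 bp (mean 2097.5 ± 261 bp, SD, n = 2). From Max to Mxd4 in this order, each replicate range overlapped that of the next gene, so those neighbours do not differ beyond their spread. The range of Mybl2 lay below that of Mxd4. For comparison, the median width over all marked genes was 2258 bp in the replicated list, and the median of the 8 marked members was 2600 bp.

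**Figure D2:**
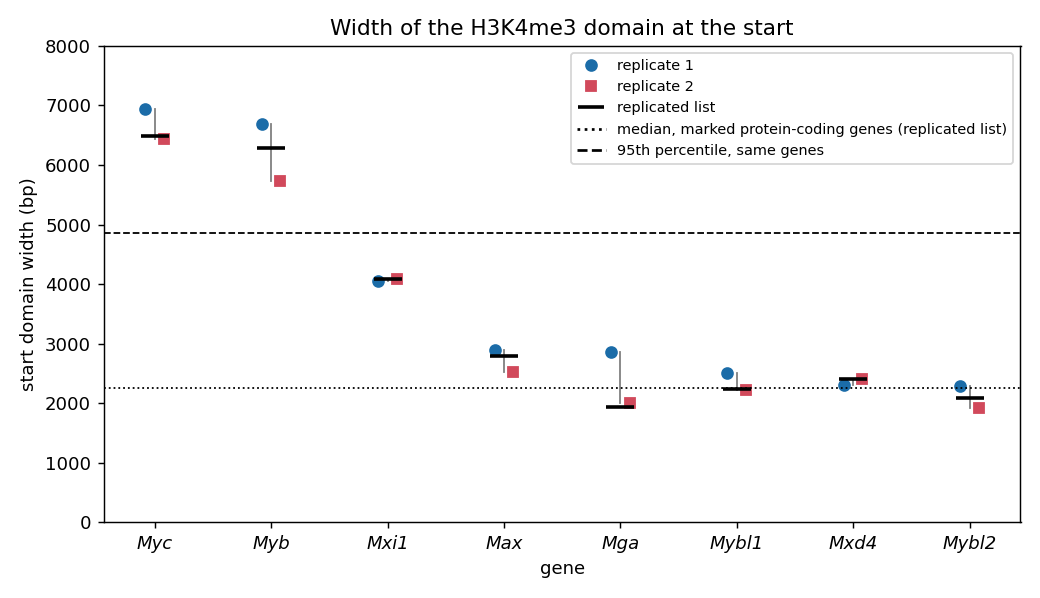
Width in bp of the H3K4me3 domain at the start of the 8 marked members, ordered by the mean of the replicates. Circles are replicate 1, squares replicate 2 and black bars the replicated list. The dotted and dashed lines are the median and 95th percentile of marked protein-coding genes in the replicated list. Myc and Myb lie above the dashed line at 4864 bp in both replicates, and the other 6 lie below it.

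Myc (ENSMUSG00000022346.15, chr15:61985391-61990374, plus strand, GRCm38) is a short gene of 4984 bp. Its domain, chr15:61983601-61990090, began 1790 bp before the 5'-most start and ended 4699 bp after it. It covered 94.3% of the gene in the replicated list, the whole gene in replicate 1 and 93.3% in replicate 2. It was made of 3 peaks. A 1608-bp peak lay before the start, where the non-coding gene Gm37947 also begins, with a signal value of 7.38. A 2813-bp peak had its summit in an intron 610 bp after the start (10.3), and a 1588-bp peak had its summit in an intron 3270 bp after it (10.4). The last lay over 1000 bp from any Myc start. All 6 annotated starts of Myc were within 1000 bp of a peak.

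Myb (ENSMUSG00000019982.15, chr10:21124935-21160984, minus strand) is 36050 bp long. Its domain, chr10:21156608-21162898, ran from 1914 bp before the 5'-most start to 4376 bp after it and covered 12.1% of the gene. Most of it was 1 peak of 4336 bp with a summit in an intron, 2180 bp after the start. In the replicated list this peak also held an annotated Myb start, 4339 bp after the 5'-most start. The first intron of Myb is known as a site where transcription can be halted early, which was not measured here. The other peak, of 1753 bp, lay before the start. The summit of the highest start peak was 2174 bp after the start in replicate 1 and 305 bp after it in replicate 2, so its place was not reproducible. Of the 6 annotated Myb starts, 4 were within 1000 bp of a peak.

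Myc and Myb were wide but not strong in signal. The signal value is a score the authors give each peak, and it was compared only within a list, as a percentile among the marked genes of the highest start peak. Myc stood at percentile 21.8 in the replicated list, 37.35 in replicate 1 and 9.31 in replicate 2. It was below the median gene in all 3 lists. Myb stood at 23.1 in the replicated list, 44.8 in replicate 1 and 58.0 in replicate 2. Its percentile in the replicated list was thus below both replicate values.

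Mybl1 had the opposite form, with a domain near the median width and percentiles of 82.9 in the replicated list, 92.9 in replicate 1 and 80.8 in replicate 2. Mxd4 was at 86.5 in the replicated list and 86.2 in replicate 2 but at 34.8 in replicate 1, so its rank rests on replicate 2. Mxi1 was at 64.6, 70.4 and 56.0, and Mga at 51.3, 46.25 and 49.6, in the replicated, replicate 1 and replicate 2 lists. Max was at 32.9, 62.9 and 37.4, and Mybl2 at 51.1, 36.4 and 60.9. For Max and Mybl2 the replicates fell on opposite sides of the median gene.

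**Figure D3:**
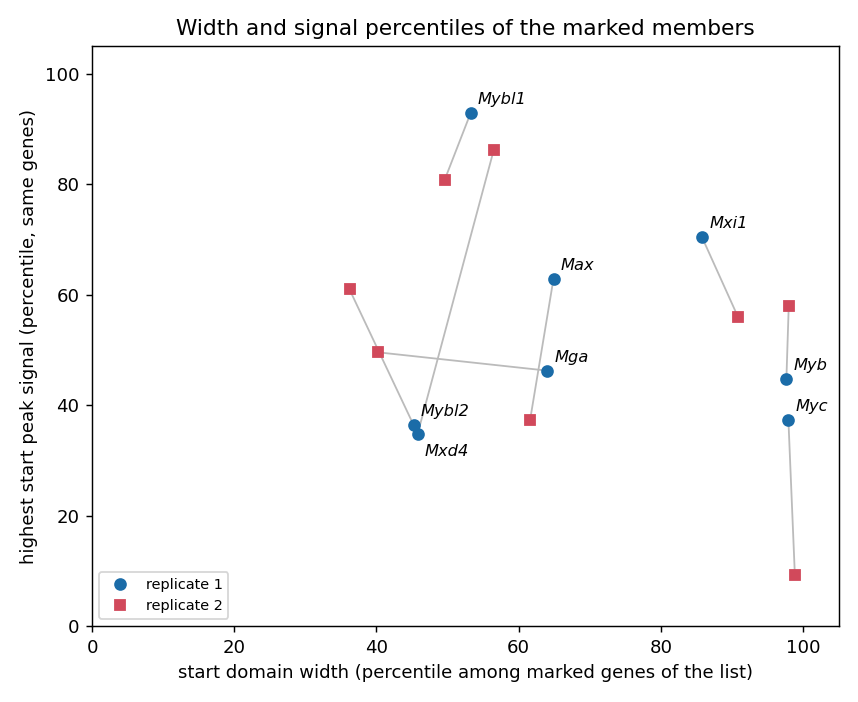
Percentile of start domain width (horizontal) and of the highest start peak signal value (vertical) among marked genes of the same replicate list, for the 8 marked members. Circles are replicate 1, squares replicate 2, and a line joins the replicates of a gene. Myc and Myb are at the right edge with signal percentiles from 9.31 to 58.0, and Mybl1 is near the middle in width and at 80.8 or higher in signal.

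The genes most like Myc and Myb in width and signal were found by percentile. Likeness was the mean absolute difference of percentile over 4 values, the width and highest signal in each replicate, among 10964 genes marked in both. Closest to Myc were G3bp1, a stress granule protein (1.31 percentile points), Rpl36a, a ribosomal protein (1.34), and Car1, an erythroid carbonic anhydrase (2.06). Closest to Myb were Clic1, an intracellular chloride channel (0.548), Zc3h4, a zinc finger protein (1.87), and Arpc5l, a subunit of the actin-nucleating ARP2/3 complex (2.02). The likeness ends at these percentiles, since Car1 domains were 13424 bp and 13139 bp wide in the replicates.

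At several members the 5'-most start itself lay in a gap between peaks. The gap at Myc was 498 bp in replicate 1, 372 bp in replicate 2 and 411 bp in the replicated list. At Mxd4 it was 429 bp, 360 bp and 386 bp in the same order, and at Mga 138 bp, 114 bp and 135 bp. At Myb the start was in a gap of 312 bp in replicate 1 and 202 bp in the replicated list, but inside a peak in replicate 2. At Mybl2 it was in a gap in replicate 1 alone, of 329 bp. In the replicated list that makes 4 of the 8 marked members, where 29.8% of marked genes had such a gap.

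The repressive partners differed in how many of their starts were marked. Mxi1 (ENSMUSG00000025025.14, chr19:53310518-53375810, plus strand) had 8 of its 9 starts within 1000 bp of a peak. Its first start lay under a single peak of 4079 bp with a signal value of 15.7. A second group of starts, from 18895 to 19890 bp further on, had peaks of 217 bp and 1316 bp, the larger with a signal value of 9.28. Between these regions, a 1244-bp peak with its summit 15111 bp after the first start (12.6) lay at the start of AC133451.2, a gene annotated inside Mxi1. Mga (ENSMUSG00000033943.15, chr2:119897228-119969581, plus strand) had peaks at 4 of 12 starts, those at its 5' end, and none at the 8 starts from 24448 bp onward. Mxd4 (ENSMUSG00000037235.13, chr5:34173883-34187720, minus strand) had 2 of 4 starts marked. Max (ENSMUSG00000059436.13, chr12:76937269-76962201, minus strand), the shared partner, had 4 of 7.

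In the MYB family, Mybl1 (ENSMUSG00000025912.16, chr1:9667415-9700209, minus strand) had 3 of 5 starts marked by peaks of 1061 bp and 1086 bp, with signal values of 16.8 and 18.7. Mybl2 (ENSMUSG00000017861.11, chr2:163054687-163084688, plus strand) had 1 of 5 starts marked. Its peaks were of 172 bp before the start and 1656 bp across it, with signal values of 3.94 and 13.9.

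Peaks inside a gene and over 1000 bp from its own starts were found in 3 members, against 19.6% of protein-coding genes. Myc had the single one given above. Max had a 1085-bp peak with its summit in an intron 4166 bp after the start, with a signal value of 8.87, and Mxi1 had 3. Those of Mxi1 included the peak at the start of AC133451.2 and a 151-bp peak not found in replicate 2. In replicate 1 alone, Mga and Myb also had body peaks, which made 5 members.

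The unmarked members sat in different surroundings. The nearest peak to Mycn (ENSMUSG00000037169.15, chr12:12936093-12941914, minus strand) was 239 kb away in the replicated list and replicate 2, and 223 kb away in replicate 1. No list held a peak within 100 kb upstream of Mycn. The nearest peak to Mycl (ENSMUSG00000028654.13, chr4:122995652-123002485, plus strand) was 16.9 kb away in the replicated list and replicate 1 and 17.0 kb in replicate 2. It lay at the start of Trit1, a tRNA-modifying enzyme. The read depth of the libraries is not in the lists, so a missing peak shows that none was called, not that the mark was absent.

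Within 100 kb upstream of its start, Myb had more peaks than any other member in each list, and most lay away from annotated starts. Within 200 kb this order did not hold, since the replicated list had 17 for Max and 14 each for Myb and Mxi1. Within 100 kb upstream the replicated list held 11, replicate 1 held 21 and replicate 2 held 15. The replicate 1 list was the longer one, with 51781 peaks on the analysed chromosomes against 41501, and the part of this in the counts was not tested. Over all protein-coding genes in the replicated list the median was 2 upstream peaks and the 95th percentile 11, the count of Myb itself. In that list 6.54% of genes had as many as Myb or more. Counting only peaks over 1000 bp from any annotated start, Myb had 8, and 98.35% of genes had fewer. Of the 11 peaks, 10 overlapped a peak of each replicate, and 6 had a −log10 q of at least 5.

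The Myb upstream peaks fell in 4 groups by distance of the summit from the 5'-most start. Nearest were peaks at 26.1 kb (signal value 2.87, at the start of Gm33619), 28.1 kb (13.3, at the start of Gm40608), 32.7 kb (8.06) and 36.0 kb (2.50). The peak at 28.1 kb had a higher signal value than the Myb start peaks in the replicated list (13.3 against 10.4 for the higher of these) and in replicate 1 (12.3 against 11.6). In replicate 2 the order was turned, at 14.4 against 16.7. A second group lay at 57.4, 60.1, 61.3 and 61.7 kb, with signal values between 2.83 and 3.86. The widest of all, 2417 bp with a signal value of 5.08, was at 81.2 kb. Beside it lay a peak of 242 bp at 84.0 kb, the one not found in replicate 2. The farthest, at 91.1 kb, was 220 bp wide and lay at the start of Gm33728. Distal elements upstream of Myb that bind GATA1 and LDB1 complexes are known from mouse erythroid cells, and binding was not measured here.

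**Figure D4:**
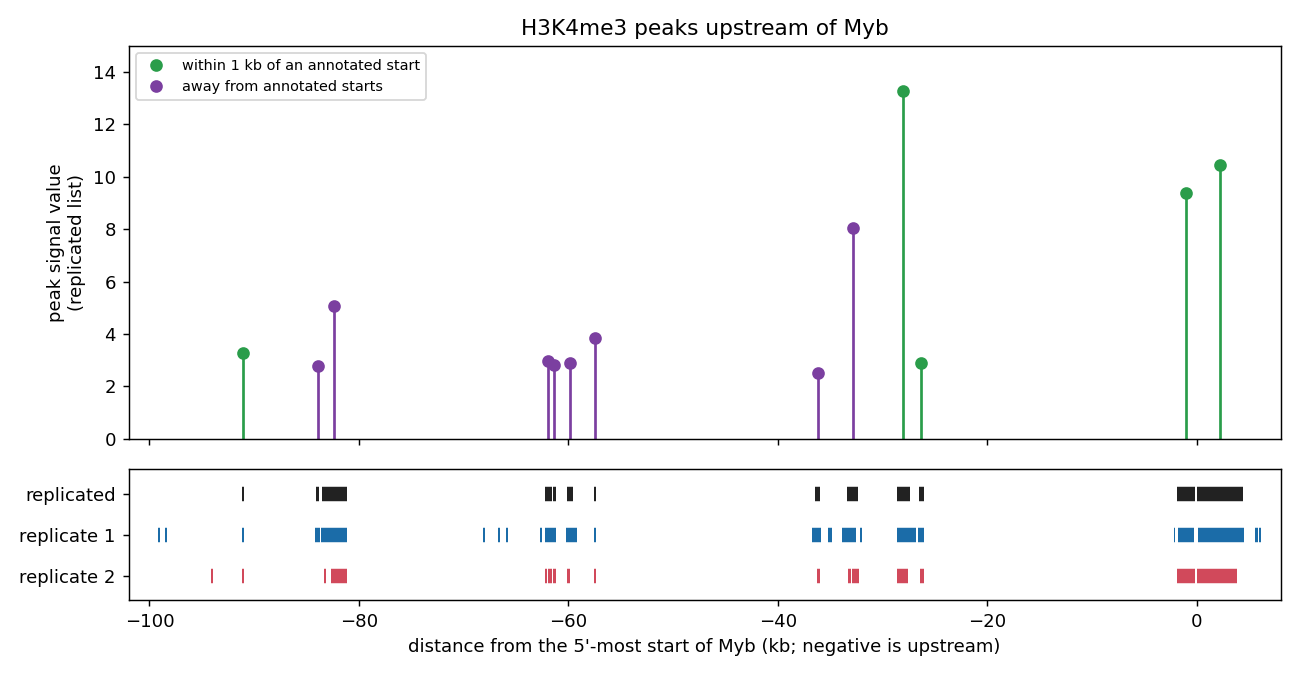
H3K4me3 peaks from 100 kb upstream of Myb to its start, with distance from the 5'-most start in kb on the horizontal axis. The upper plot gives the signal value of each peak of the replicated list, green within 1 kb of an annotated start and purple away from one, and the lower plot the peaks of each list. The 8 purple peaks include the one at 32.7 kb, with a signal value of 8.06, and those at 60.1 kb and 81.2 kb.

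The 3 widest of the Myb upstream peaks away from annotated starts are shown over 300 bases centred on the summit, on the plus strand of GRCm38.p6, because these hold words that GATA factors bind. Capitals mark AGATAA or AGATAG or TGATAA or TGATAG on either strand.
Peak 81.2 kb upstream, chr10:21242075-21242374: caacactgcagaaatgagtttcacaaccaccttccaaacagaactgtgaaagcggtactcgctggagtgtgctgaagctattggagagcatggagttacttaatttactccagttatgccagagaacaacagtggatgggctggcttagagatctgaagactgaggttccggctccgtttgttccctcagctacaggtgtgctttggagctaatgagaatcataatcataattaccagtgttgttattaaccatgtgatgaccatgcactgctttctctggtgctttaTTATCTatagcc
Peak 32.7 kb upstream, chr10:21193545-21193844: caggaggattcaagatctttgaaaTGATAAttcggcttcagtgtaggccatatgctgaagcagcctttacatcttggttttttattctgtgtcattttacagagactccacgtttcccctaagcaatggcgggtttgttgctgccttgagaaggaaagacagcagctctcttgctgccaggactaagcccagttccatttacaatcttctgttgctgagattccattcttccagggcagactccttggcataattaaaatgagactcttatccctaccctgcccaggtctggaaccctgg
Peak 61.7 kb upstream, chr10:21222513-21222812: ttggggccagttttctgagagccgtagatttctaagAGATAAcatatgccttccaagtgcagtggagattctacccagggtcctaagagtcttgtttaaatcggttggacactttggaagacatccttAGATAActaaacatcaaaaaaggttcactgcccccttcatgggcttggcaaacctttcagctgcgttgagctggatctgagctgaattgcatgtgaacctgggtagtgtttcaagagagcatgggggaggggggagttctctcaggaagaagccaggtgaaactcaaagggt

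All 8 Myb upstream peaks away from starts held at least 1 of these GATA words within 150 bp of the summit. Among 17406 replicated peaks away from every annotated start the share was 48.4%, and among 19973 peaks within 1000 bp of a start it was 24.6%. The 8 Myb peaks include the weak peak at 84.0 kb, which had a −log10 q of 1.70 and was not found in replicate 2. Those at 61.3 and 61.7 kb were a single peak in replicate 1. The peaks upstream of Myb lie close to each other and share a region, so they are not independent, and no test was made.

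Of the other members 6 also had upstream peaks, while 64.7% of protein-coding genes had at least 1. Max had 5, all away from annotated starts, from 40.4 to 98.2 kb, with signal values from 4.05 to 7.22, and 4 of them held a GATA word. In replicate 1 Max had 13 and in replicate 2 it had 6. Mxi1 had 4, also away from starts, the nearest at 7.05 kb with a signal value of 7.57, and 1 of the 4 held a GATA word. Mga had 4, of which 2 lay at the start of Tyro3, a receptor kinase. Of the 4 Mga peaks, 2 overlapped a peak of each replicate. A 1960-bp Mga peak at 24.9 kb, with a signal value of 8.41, was away from any start and held no GATA word. The other Mga peak away from starts, of 218 bp at 59.0 kb, held 1 but was not found in replicate 2. Its −log10 q was 0.979. Of the peaks away from starts, 1 of 2 for Mycl and 1 of 1 for Mybl1 held a GATA word. That Mybl1 peak lay inside Vcpip1, less than 1000 bp from the peak at the Vcpip1 start. Of the 5 upstream of Mybl1, 4 lay at the starts of Vcpip1 and 1700034P13Rik or of Sgk3. Mycl had 3, the widest of them the promoter peak of Mfsd2a, a lipid transporter, and 4933421A08Rik, and Mybl2 had 1, at Ift52. Myc, Mycn and Mxd4 had none in the replicated list, and replicate 2 alone gave Mxd4 1.

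**Figure D5:**
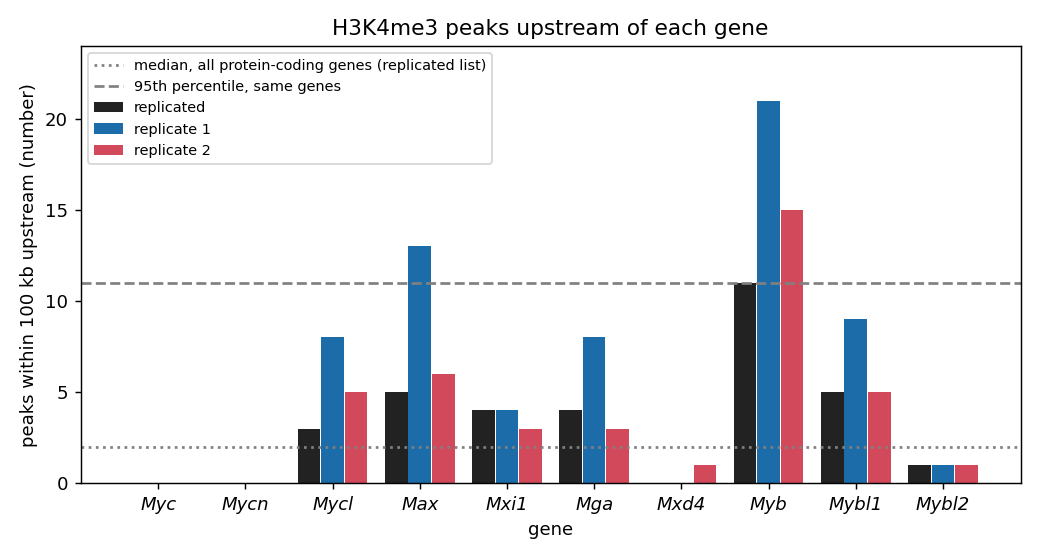
Number of H3K4me3 peaks within 100 kb upstream of each of the 10 genes in the replicated (black), replicate 1 (blue) and replicate 2 (red) lists. The dotted line is the median of all protein-coding genes in the replicated list, at 2, and the dashed line the 95th percentile in that list, at 11. No such lines are drawn for the replicate lists. Myb is at 11 in the replicated list and at 21 and 15 in the replicates.

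Genes that work with or below these factors were nearly all marked. Of 92 listed genes 86, or 93.5%, had a start peak in the replicated list, where 50.3% of all protein-coding genes had one, and the median domain was 2682 bp wide. Most of the listed genes have high-CpG promoters, and of these 69 of 72, or 95.8%, were marked, beside 79.8% of all high-CpG genes. Many of them are housekeeping genes chosen for their known ties to growth and division, so the share is a description of the lists. Several of the domains whose widths are given here and in the next paragraph also lay at starts of other genes. Examples are Cep95 for Ddx5 and Hspe1 for Hspd1. The cofactors and regulators of MYB were marked in 10 of 10, led in width by the histone methyltransferase Kmt2a (4854 bp) and the helicase Ddx5 (4136 bp). Those of MYC were marked in 19 of 20, with Sin3a, the corepressor used by MXI1, at 6597 bp and the ubiquitin ligase Huwe1 at 5247 bp. Bin1, a MYC-binding protein, had no start peak. The MuvB and DREAM partners of MYBL2 were marked in 15 of 15, with the kinase Dyrk1a at 3968 bp and Lin54, the DNA-binding subunit, at 3850 bp.

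Among known targets, those of MYC were marked in 20 of 20, with Ccnd2, cyclin D2, at 7259 bp and Hspd1, a mitochondrial chaperone, at 6831 bp. The late cell cycle targets of MYBL2 and FOXM1 were marked in 14 of 14, with the kinase Plk1 at 3981 bp and Birc5, survivin, at 3510 bp. Known MYB targets were marked in 5 of 8. Bcl2, an inhibitor of cell death, had 7548 bp and Cdk6, a G1 kinase, 6385 bp, whereas Cd34, Gfi1 and Kit, genes of early progenitors, had none. Kit had a start peak of 187 bp in replicate 1 alone and 6 body peaks in the replicated list. Of the other genes of the MAX and MLX network 5 of 7 were marked, with Mnt, a MAX partner and repressor, at 4069 bp and Mlxip, a glucose-responsive factor, at 3112 bp. Mlxipl and Mycs, a MYC-like gene, had none.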

How the data were processed

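H3K4me3 ChIP-seq peak lists from 2 replicates of MEL cells were used, as deposited in narrowPeak format on mm10, the same build as GRCm38. Per the labels, fragments of 150 to 350 bp were selected. The deposited lists are 1 per replicate, 1 from pooled replicates and 1 of replicated peaks, the last 2 made by the authors from both replicates. Each peak carries the authors' signal value, a score with no stated definition. In the deposited lists −log10 p and −log10 q stand beside it, and 1.77% of the replicated peaks had a q-value above 0.05. For the aligner, the caller and its settings, and the replication rule, nothing is stated in the labels or file headers. An mm9 list was not used. The lists hold no read counts, so depth and the precision it gives are unknown.

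Peaks of the autosomes, X and Y were set against the 93513 transcript starts of GENCODE M21 in Python 3.11.15 with numpy 2.4.6, pandas 2.3.3, numba 0.67.0, pysam 0.24.0 and samtools 1.23.1, and plotted with matplotlib 3.10.9. The start window was 1000 bp, the merging gap 1000 bp and the upstream region 100 kb. A gene took its widest domain within the window. A promoter counted as high-CpG where, over 1001 bases, observed CpG was at least 0.6 of expectation and GC content at least 0.5. On simulated peaks, start calls were checked against a direct search, and merged domains for the gaps left between them. Domain widths were not checked in this way. With 1 group there was no test, and values are given with the replicate spread. Members, gene lists and rules were chosen with earlier results of these data known. Named genes were all members, genes whose starts lie at member peaks, the 2 widest and up to 4 unmarked genes of each list, and the 3 genes most like Myc and Myb. Alternatives were start windows of 500 and 2500 bp, the 5'-most or nearest start alone, a minimum −log10 q of 5, the pooled list, each replicate list alone, other gaps, another width limit and upstream regions of 50 and 200 kb. The word TTGGCGGG was added after the data were seen.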

Additional observations from a re-analysis of the deposited data

How the results depend on the processing

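The same number of members, 8, had a start peak under every alternative tried, while the share of all protein-coding genes with one was 49.6% with a 500-bp window, 51.9% with 2500 bp, 46.9% for the 5'-most start alone, 46.7% for the nearest start, 49.5% with −log10 q of at least 5, and 50.4% to 50.9% in the replicate lists alone. Members with body peaks numbered 3 to 5 in the replicate lists alone. Upstream peaks of the 10 members summed to 33, to 39 and 64 in the replicate lists alone, to 15 within 50 kb and to 79 within 200 kb. Members in the widest 5% numbered 1 with gaps of up to 3000 bp. The median member width was 1697 bp with no merging and 4108.5 bp with gaps of up to 3000 bp. The causes were not tested. Among single members, 6 signal percentiles and 15 widths moved beyond the replicate spread, and 26 and 33 did not. These counts do not measure robustness. Member widths in the pooled list were those of the replicated list, and each replicate list was set against a spread that it helped to form. Upstream counts changed by over 1.5 times, or between 0 and a higher count, in 25 comparisons and by no more than that in 45. No paired analysis was possible because there is 1 group and no test. Depth is unknown, so weak or missing peaks cannot be told apart from too few reads.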

Other observations

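Downstream of Myc, a region outside the rule for these genes and looked at after the data were seen, the replicated list held 5 peaks within 100 kb of the gene, all between 44.7 and 55.8 kb from the Myc start. The widest, of 3371 bp with a signal value of 8.57, lay at the start of Pvt1, a long non-coding RNA gene beside Myc, and of Gm27913. Some of the others were weak. The peak at 45.0 kb had a signal value of 1.94 and a −log10 q of 0.480, and the peak at 55.8 kb was not found in replicate 2. No peak was called in the 100 kb upstream of Myc in any of the 4 mm10 lists, so the peaks within 100 kb of the gene were all on its downstream side, beside those of its own start and body.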
